A study of Mus musculus with 6 samples.

Results

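Cluster 9 is a group of 2472 cells and nuclei out of 51785 in the authors' table, and its members are all entries that the deposited clustering gave that number. Most of them came from paclitaxel-treated cells: 1070 from PAC3, 662 from PAC1 and 336 from PAC2. Another 137 were UNT cells, 170 were UNT nuclei, and 97 came from the eribulin conditions. Gene-level expression was not analysed here, so the cluster could not be checked against marker genes, and it is called by its number and given no cell type.

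All conditions used PB3 cells, a line from a mouse mammary tumour, into which lentiviral lineage barcodes had been brought. UNT cells received no drug and were captured as whole cells in run 1. PAC1, PAC2 and PAC3 were cells after 1, 2 and 3 rounds of paclitaxel, labelled with hashtag oligonucleotides and captured together in run 2. Paclitaxel was given for 72 h per round, at 100 nM in the first and 250 nM in later rounds, with 48 h of recovery between them. For PAC2 no recovery is named after its final round, and for PAC1 and PAC3 the time of recovery is not stated. ERI1, ERI2 and ERI3 were cells after 1, 2 and 3 rounds of eribulin, at 500 nM for 72 h with 48 h of recovery, pooled in the same way in run 2, and ERI4 cells had 4 such rounds in run 1. UNT nuclei and ERI4 nuclei were the untreated and the 4-round eribulin samples of run 3, made from nuclei with a combined RNA and chromatin assay. Each condition was measured once, so there is no replicate culture and no test; intervals in parentheses are exact Clopper-Pearson 95% intervals for shares, or 95% intervals of a median from its ranks, and cover counting error only. Run 2 holds no untreated library, so untreated and paclitaxel cells also differ in run, and drug and run cannot be told apart in that comparison. Median depth was 11674 UMIs (counted RNA molecules) per cell in PAC1, 16775 in PAC2, 12775.5 in PAC3, 18420 in UNT cells and 3427.5 in UNT nuclei. Of 51540 different cell barcodes, 245 occurred in more than 1 library, and 22 cluster 9 members carry such a barcode.

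Paclitaxel binds microtubules and stabilises them, so that the mitotic spindle cannot work normally and dividing cells are held in mitosis. Cells of a tumour line that remain after such a treatment can be descendants of a few founders or a mixture of many, and a lineage barcode tells these apart. The barcode is a short synthetic sequence that a lentivirus inserts into the genome of a founder cell, from which all its daughter cells inherit it. It is transcribed, so it is read together with the RNA of a cell.

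The barcodes that lead cluster 9 are shown because most of the results below are about where cells with these sequences lie. Each sequence has 48 bases, 14 from a first library in capitals, then a linker of 4 bases and 30 bases from a second library in lower case. They are the barcodes with at least 50 paclitaxel cells in cluster 9, in falling order of that number.
bc14-4-bc30-67693: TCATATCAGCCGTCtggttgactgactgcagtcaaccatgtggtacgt
bc14-33-bc30-33994: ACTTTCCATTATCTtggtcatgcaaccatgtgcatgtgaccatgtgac
bc14-18-bc30-67263: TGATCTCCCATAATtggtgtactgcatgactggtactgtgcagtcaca
bc14-13-bc30-29729: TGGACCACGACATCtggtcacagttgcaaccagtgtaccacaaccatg
bc14-65-bc30-62538: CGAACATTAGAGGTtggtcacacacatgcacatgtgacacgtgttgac
bc14-58-bc30-9763: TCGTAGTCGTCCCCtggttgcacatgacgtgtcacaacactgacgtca
bc14-86-bc30-69871: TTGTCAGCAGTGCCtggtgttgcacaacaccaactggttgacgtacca
bc14-29-bc30-33048: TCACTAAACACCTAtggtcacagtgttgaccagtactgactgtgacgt
Any pair of these 8 sequences differs at 27 to 39 of the 48 positions, so reading errors at a few bases would not turn one into another. All 697 different barcodes called in the table are among the 10000000 sequence pairs of the deposited reference. In the text below a barcode is named by the same numbers.

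Without drug, 1.24% (1.04 to 1.46) of cells and 1.71% (1.47 to 1.99) of nuclei had this cluster number. After eribulin the share was 0.483% (0.221 to 0.914) for ERI1 and 1.75% (1.10 to 2.64) for ERI2. It was 0.423% (0.225 to 0.722) for ERI3 and 0.386% (0.270 to 0.534) for ERI4 cells, and 17 of 8711 ERI4 nuclei were members. The shares after paclitaxel were 22.6% for PAC1, 39.6% for PAC2 and 38.3% for PAC3. A small set of untreated cells therefore had the same cluster number as a large share of paclitaxel-treated cells, and the barcodes show whether these belong to the same lineages.

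Cells with the same barcode lay almost all inside or almost all outside cluster 9. A called cell here is a cell to which the authors' latest barcode call gives exactly 1 barcode. Among the called cells of PAC1, PAC2 and PAC3 together, 95 barcodes had at least 5 cells. Of these, 67 had under 20% of their cells in cluster 9, and 54 of them under 5%. At the other end, 27 had at least 80% in the cluster, and 13 of them at least 95%. A single barcode lay between, bc14-16-bc30-28768, with 2 of its 6 cells in cluster 9. This number depended on the settings. It was 5 of 113 barcodes with at least 3 paclitaxel cells and 0 of 62 with at least 10. With the authors' original barcode call it was 2 of 55, and with their first revision 3 of 74. With exactly 1 detected barcode it was 2 of 72, and in a common UMI window 2 of 82. The 27 barcodes with at least 80% are called cluster 9 lineages from here on. The lowest of them, bc14-86-bc30-30675, had 4 of 5 cells in the cluster, and the barcode next below the gap had 33.3%. They were chosen by where their paclitaxel cells lie, so their share in the cluster in PAC1 to PAC3 (92.6%, 90.7% and 96.8%) is a description of that choice.

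The untreated cells had no part in that choice. The 27 lineages were rare in them: 26 of 5087 called UNT cells and 34 of 4935 called UNT nuclei carried one, which is 0.511% (0.334 to 0.748) and 0.689% (0.478 to 0.961). Of those 26 UNT cells, 22 were in cluster 9, or 84.6% (65.1 to 95.6), against 8 of 5061 UNT cells with any other barcode, or 0.158% (0.0683 to 0.311). Of the 34 UNT nuclei, 28 were in cluster 9, or 82.4% (65.5 to 93.2), against 38 of 4901 with any other barcode, or 0.775% (0.549 to 1.06). Most cells seen of the lineages thus had the cluster's number without drug in both untreated libraries, which come from different runs and assays. Of the 28 nuclei, 16 carried bc14-18-bc30-67263 and 7 carried bc14-71-bc30-60126, so most came from these lineages. Cells of 1 lineage are not independent, which the intervals do not take into account. The UNT cell counts depend on the barcode call: with the original call 8 such cells were left, 62.5% of them in cluster 9. With exactly 1 detected barcode 3 were left, all in the cluster. In UNT nuclei the same settings gave 88.9% of 18 and 85.2% of 27. The 22 UNT cell members had a median of 26298 UMIs, against 15989 in UNT cell members without a single call. In all, 12 of the 27 lineages were seen in UNT cells, 7 in UNT nuclei, 6 in both and 13 in either. Most members of cluster 9 in UNT cells have no call, since 54.7% (46.0 to 63.3) had no detected barcode, against 34.4% (33.6 to 35.3) of the UNT cells in other clusters. In UNT nuclei these shares were 52.9% (45.1 to 60.6) and 38.7% (37.7 to 39.6). For paclitaxel cells the order was the other way, with 12.7%, 10.4% and 5.51% of the cluster 9 cells of PAC1, PAC2 and PAC3 without a detected barcode and 25.6%, 20.5% and 12.1% of the others. The part of barcode detection in these counts was not tested.

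**Figure D1:**
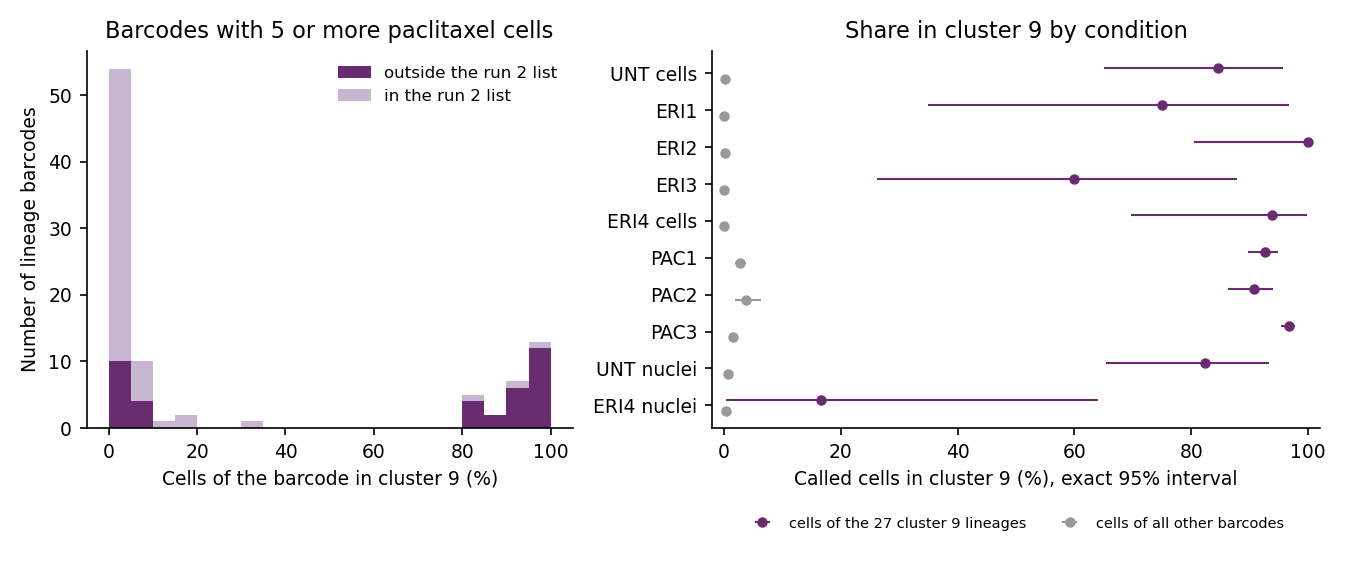
Left, the number of lineage barcodes (vertical axis) by the percent of their paclitaxel cells that lie in cluster 9 (horizontal axis, bins of 5 percentage points), for the 95 barcodes with at least 5 such cells, coloured by whether the barcode is in the run 2 list. Right, the percent of called cells in cluster 9 for each condition, in purple for the 27 cluster 9 lineages and in grey for all other barcodes, with exact 95% intervals. The barcodes fall at both ends of the left axis with 1 between, and the purple points of both untreated libraries lie above 80% while the grey ones lie below 1%.

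Among untreated members of the cluster the leading lineage was bc14-18-bc30-67263. All 6 UNT cells with it and 16 of 18 UNT nuclei with it were in cluster 9. In UNT cells it was followed by bc14-21-bc30-32283 and bc14-71-bc30-60126, each with 3 of 3 cells in the cluster, while bc14-75-bc30-22367 also had 3 cells there, of 4. In UNT nuclei bc14-71-bc30-60126 had 7 of 8 in the cluster. Equal in number was bc14-71-bc30-29939, with 7 of 15 nuclei and 2 of 7 UNT cells in cluster 9 and no paclitaxel cell in any cluster. A second such barcode, bc14-29-bc30-70749, had 5 of 7 UNT nuclei in cluster 9 and was likewise in no paclitaxel cell; it is named after its values were seen. The lineage that leads after paclitaxel, bc14-4-bc30-67693, was in 2 UNT cells, both in cluster 9, and in none of 4935 called UNT nuclei. Taking 3 cells as the limit that a count of 0 allows, its share of these nuclei could be up to 0.0608%.

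Across the paclitaxel rounds a lineage kept its side of the boundary with few exceptions. Of 20 barcodes with at least 5 called cells in both PAC1 and PAC3, 11 had at least 80% of their cells in cluster 9 in both, 8 had less in both and 1 differed. The exception was bc14-29-bc30-33048, with 27 of 31 cells in the cluster in PAC1, 19 of 21 in PAC2 and 16 of 25 in PAC3, the last being 64.0% (42.5 to 82.0). From PAC1 to PAC2, 9 of 20 barcodes were in the cluster in both, 10 in neither, and bc14-71-bc30-60126 differed, at 57.1% in PAC1. From PAC2 to PAC3, 7 of 13 were in the cluster in both, 5 in neither, and bc14-29-bc30-33048 differed again. The 27 lineages were carried by 24.1% (22.1 to 26.1) of called PAC1 cells, by 43.4% (39.3 to 47.6) for PAC2 and by 38.1% (36.1 to 40.2) for PAC3. They made up 91.3%, 94.9% and 97.5% of the called members of the cluster in these conditions, and 19 of them were seen in all 3.

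The make-up of the cluster differed between rounds far more than its boundary. The lineage bc14-4-bc30-67693 was in 47 of 437 called cluster 9 cells of PAC1, 38 of 236 of PAC2 and 482 of 866 of PAC3. These are 10.8% (8.01 to 14.04), 16.1% (11.7 to 21.4) and 55.7% (52.3 to 59.0), so PAC3 stands above both earlier rounds and PAC1 and PAC2 overlap. As a share of all called cells it was 2.90% in PAC1, 7.21% in PAC2 and, highest, 21.3% in PAC3. In the PAC1 members the leading barcode was instead bc14-18-bc30-67263, with 68 of 437 cells, or 15.6% (12.3 to 19.3). That lineage had 31 cluster 9 cells in PAC2 and 1 in PAC3, where 3 cells in all carried it. The lineage that led among untreated members and in PAC1 was thus nearly missing among the called cells of PAC3.

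The size of cluster 9 in PAC3 depended on 2 lineages, 1 on each side of its boundary. Over all called cells, 24.4% (22.4 to 26.4) were members for PAC1, 41.5% (37.4 to 45.6) for PAC2 and 37.9% (35.9 to 39.9) for PAC3. Without bc14-4-bc30-67693 the share was 22.4% (20.5 to 24.4) for PAC1, 37.5% (33.4 to 41.8) for PAC2 and 21.3% (19.5 to 23.3) for PAC3. PAC1 and PAC3 then overlap, while PAC2 stays above both. The lineage bc14-76-bc30-49517, which leads outside the cluster, was in 9.15% (7.86 to 10.6) of called PAC1 cells, 22.0% (18.6 to 25.6) for PAC2 and 48.9% (46.8 to 51.0) for PAC3. Leaving it out instead gave a cluster 9 share of 26.5% (24.3 to 28.7) for PAC1, 52.9% (48.2 to 57.7) for PAC2 and 73.6% (71.0 to 76.1) for PAC3. Without both lineages the shares were 24.4%, 48.9% and 55.5% (51.7 to 59.3). PAC3 was therefore above PAC1 with all lineages, without bc14-76-bc30-49517 and without both, and overlapped PAC1 when bc14-4-bc30-67693 alone was left out. The number of different barcodes expected in 236 called members was 40.6 for PAC1, 32 for PAC2 and 19.3 for PAC3. The inverse Simpson index, which is the number of equally common barcodes that would give the same evenness, was 14.6, 13.1 and 3.01. In the other clusters the same index was 16.8, 6.25 and 1.596, and there bc14-76-bc30-49517 led in PAC2 and PAC3, with 78.3% (76.1 to 80.4) of the called PAC3 cells outside cluster 9.

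Set against their share of all called cells, 4 of the 27 lineages were higher in PAC3 than in PAC1 with intervals that do not overlap, 5 were lower and 18 overlapped. Over all 95 barcodes with at least 5 paclitaxel cells, 5.26%, which is 5 barcodes, were higher by this rule and 41.1%, or 39, were lower. The 4 higher lineages were bc14-4-bc30-67693 (52 cells in PAC1 and 487 in PAC3), bc14-13-bc30-29729 (7 and 88), bc14-86-bc30-69871 (17 and 48) and bc14-58-bc30-9763 (15 and 45). Among the lower ones were bc14-18-bc30-67263 (71 and 3) and bc14-65-bc30-62538 (55 and 36). The lineages bc14-33-bc30-33994 (33 and 54), bc14-29-bc30-33048 (31 and 25), bc14-12-bc30-55481 (21 and 18), bc14-2-bc30-90226 (11 and 28) and bc14-35-bc30-28143 (20 and 14) overlapped. Of the first 4, bc14-29-bc30-33048 had 87.1% of its PAC1 cells in cluster 9 and the others 90% or more. The shares sum to a whole, so the large lineages of PAC3 lower every other share there: bc14-4-bc30-67693 at 21.3% and, outside cluster 9, bc14-76-bc30-49517 at 48.9%.

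**Figure D2:**
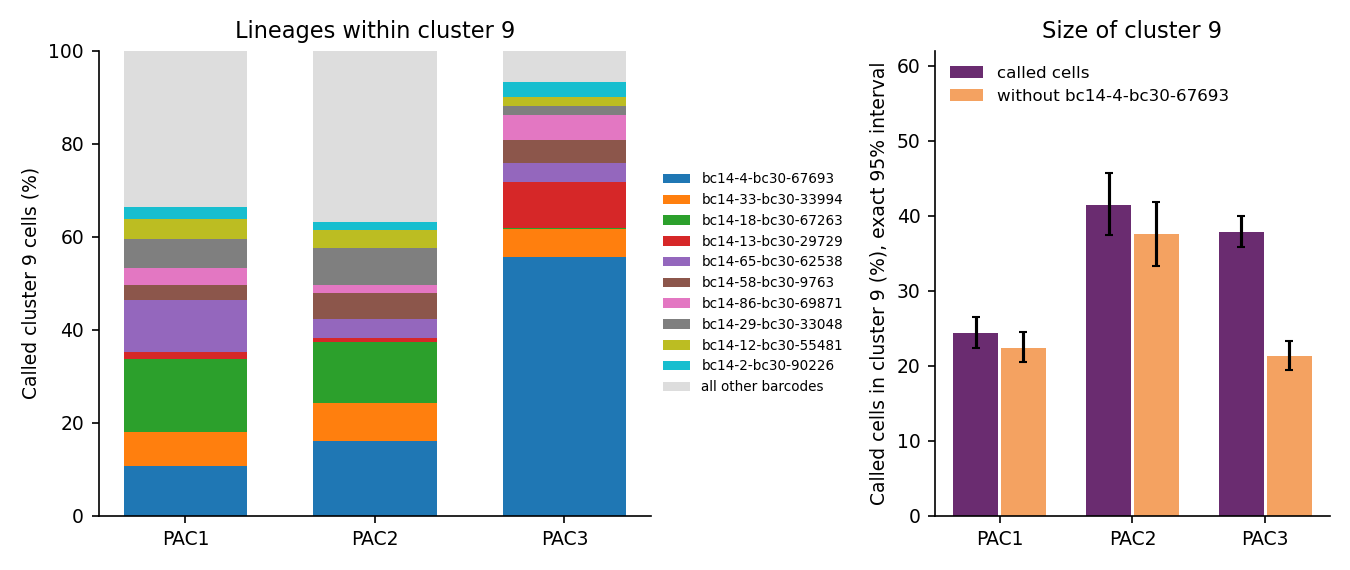
Left, the percent of called cluster 9 cells in PAC1, PAC2 and PAC3 that carry each of the 10 most frequent barcodes, stacked, with all other barcodes in grey. Right, the percent of called cells in cluster 9 with all barcodes (purple) and without bc14-4-bc30-67693 (orange), with exact 95% intervals. The blue part, bc14-4-bc30-67693, is 10.8% of the members in PAC1 and 55.7% in PAC3, and without it PAC3 stands at 21.3%, near PAC1.

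The eribulin conditions held few of these lineages, and for ERI1 to ERI3 the calls bear on only some of them. A second deposited reference, made for run 2, lists 185 lineage barcodes. All 4453 called cells of ERI1, ERI2 and ERI3 have a barcode from this list. In PAC1 to PAC3, which belong to the same run, 34.3% (32.9 to 35.7) of called cells have a barcode outside it. In cluster 9 this was 85.1% (83.2 to 86.9) of the called paclitaxel cells, against 9.11% (8.12 to 10.2) in the other clusters. Of the 27 lineages 3 are in the list, as are 54 of the 68 other barcodes. The ERI4 libraries, from other runs, do have calls outside the list, in 41 of 6725 ERI4 cells and 31 called ERI4 nuclei, which is 0.610% and 2.07% against 36.6% of UNT cells and 35.9% of UNT nuclei. In each ERI4 library 1 of the 27 lineages was seen. Whether barcodes outside the list could be called in ERI1 to ERI3 was not tested, so no absence of the 24 other lineages is read there. The 3 listed lineages were present: bc14-33-bc30-33994 had 14 of 14 ERI2 cells in cluster 9, bc14-75-bc30-22367 had 3 of 3 ERI1 cells there, and bc14-29-bc30-33048 had 3 of 5 in ERI1, 3 of 3 in ERI2 and 6 of 10 in ERI3. They made up 29 of the 32 called members from these conditions.

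In ERI4 cells 36 members were found, and they were of different kinds. Of the 17 that were called, 15 carried bc14-29-bc30-33048, which had 16 ERI4 cells in all. These 15 lay at the place of the other cell members of the cluster in the UMAP (a flat map in which cells with similar expression are placed near each other), with a median of 15639 UMIs, 4039 genes and a pseudotime of 22.0. The 19 members without a single call had a median of 1178 UMIs, 678 genes and a pseudotime of 19.6. Their median place in the UMAP was -4.12 and -4.17, against -5.07 and -3.09 for the 15. In this library the lineage cells and the shallow cells thus shared a cluster number and differed in depth and pseudotime. ERI4 nuclei had 6 nuclei with bc14-29-bc30-33048, of which 1 was in cluster 9.

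In the UMAP the members from UNT cells and the paclitaxel conditions lay together. The median place was -4.83 and -2.83 on the 2 axes in PAC1, -5.02 and -2.85 in PAC3, -5.04 and -3.93 in PAC2, and -4.82 and -4.39 in UNT cells. PAC1 and PAC3 members overlapped, PAC2 members lay below them and UNT cells lay at the lower edge next to PAC2. With 848 cells drawn from each condition, 71.5% of the 30 nearest neighbours of a UNT member came from PAC2, 18.4% from UNT cells and 1.44% from PAC1. Of the neighbours of PAC1 members, 52.5% came from PAC3, 34.5% from PAC1 and 9.74% from PAC2. For PAC2 members 76.3% came from PAC2. The equal draw keeps 848 of the 11061 UNT cells and all 848 PAC2 cells, so it leaves few UNT members as possible neighbours. With all cells as reference, 75.4% of the neighbours of UNT members were UNT cells and 15.8% came from PAC2. In both settings PAC2 was the most frequent other condition around untreated members. The share of neighbours that were in cluster 9 was 89.4% for PAC1 members, 95.3% for PAC2, 94.9% for PAC3 and 86.8% for UNT cells. It was 97.8% for the 9 ERI1 and 98.9% for the 22 ERI2 members, but 53.8% for the 13 ERI3 and 48.9% for the 36 ERI4 cell members. Those of ERI3 and ERI4 were spread out, with interquartile ranges of 3.22 and 4.12 on the second axis, against 0.716 or less in the other cell conditions.

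UNT nuclei in the cluster lay far from the cells, at a median place of 4.93 and -2.75. In the equal draw 22.1% of their 30 nearest neighbours were in cluster 9. That draw keeps 848 of the 9916 UNT nuclei, so it leaves few members as possible neighbours. With all cells as reference the share was 60.7%. The 28 nuclei of the cluster 9 lineages lay in a dense spot at 4.86 and -2.76, while the 38 with other barcodes had a median place of 5.97 and -2.79. The cluster number is thus shared by cells and nuclei that the UMAP keeps apart. The 27 lineages made up 42.4% (30.3 to 55.2) of the called UNT nuclei members and 73.3% (54.1 to 87.7) of the called UNT cell members. Map and clusters were made from the same genes, so these places describe the clustering and do not test it.

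**Figure D3:**
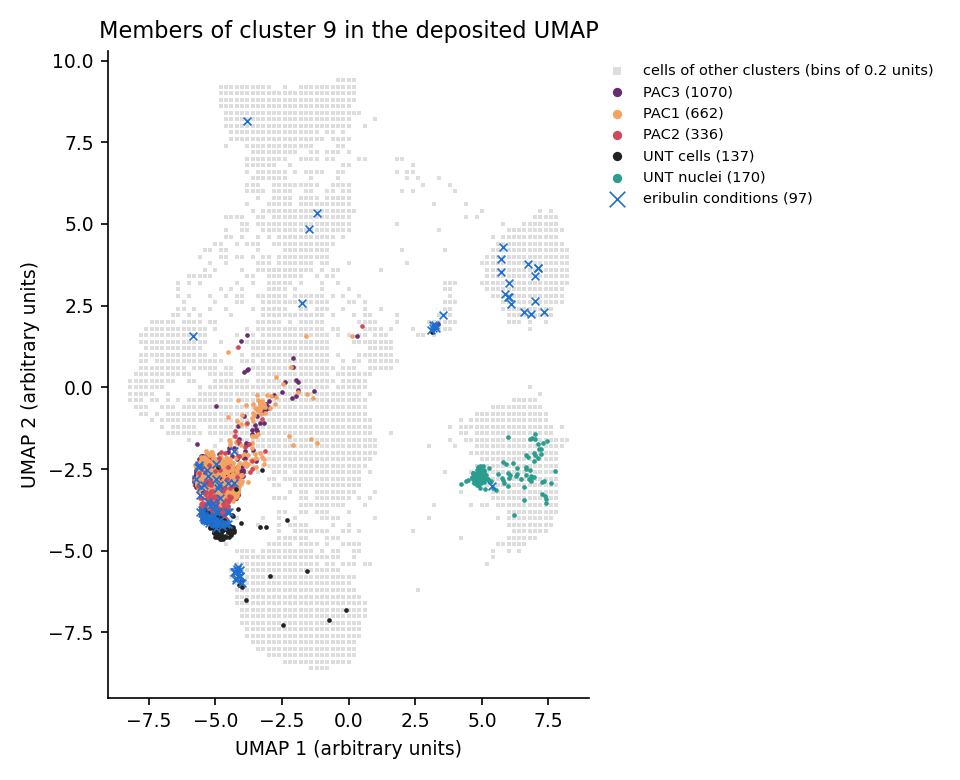
Each coloured point is a cluster 9 member at its deposited UMAP coordinates (both axes in arbitrary units), by condition with the number of members in the key, crosses are members from the eribulin conditions, and grey squares are places with cells of other clusters. PAC1 and PAC3 overlap on the left side, PAC2 and UNT cells lie below them, and UNT nuclei lie apart on the right.

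Pseudotime places cells along a path that starts from the root the authors chose, here the untreated cells. Untreated members of cluster 9 were late on it too. The median was 23.9 (23.8 to 23.9) in the 137 UNT members and 7.57 in the other UNT cells, and it was 23.9 in UNT nuclei members and 13.1 in the other UNT nuclei. In PAC1 it was 21.9 (21.7 to 21.9) in members and 16.6 in other cells, in PAC2 23.9 and 14.5, and in PAC3 22.0 and 20.7. Cells of cluster 2 were late too, with medians of 20.9 in PAC1, 20.9 in PAC2 and 21.0 in PAC3. In pairs of a PAC3 member and a PAC3 cell of cluster 2, the member was above in 75.8%. The like share was 99.2% against cluster 6 in PAC1 and 99.0% against cluster 7 in PAC2. The median of UNT members was thus above that of PAC1 and PAC3 members, against the order of the rounds.

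Many members had exactly the same pseudotime. The value 23.8808 was shared by 596 of the 2472 members, or 24.1% (22.4 to 25.8), and by 11 of 49313 cells in all other clusters. It was the value of 86.6% (82.5 to 90.1) of PAC2 members, 48.9% (40.3 to 57.6) of UNT cells and 62.9% (55.2 to 70.2) of UNT nuclei, but of 6.80% (5.00 to 8.99) of PAC1 and 5.05% (3.81 to 6.53) of PAC3. Beyond it lay 12 members. Among UNT nuclei it was the value of 24 of the 28 nuclei of cluster 9 lineages and of 16 of the 38 with other barcodes. The medians of PAC2 and UNT nuclei members are this value itself. Ties were not limited to it. In PAC3 members the median and both ends of its interval were 21.9818. The bc14-4-bc30-67693 members of PAC1 and PAC3 had this median as well. Among cells of other clusters, median and interval ends were also equal in ERI1 (13.5933), ERI2 (13.7333) and ERI3 (22.4759). How many cells share these other values was not counted. The scale gives no order among cells that share a value.

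**Figure D4:**
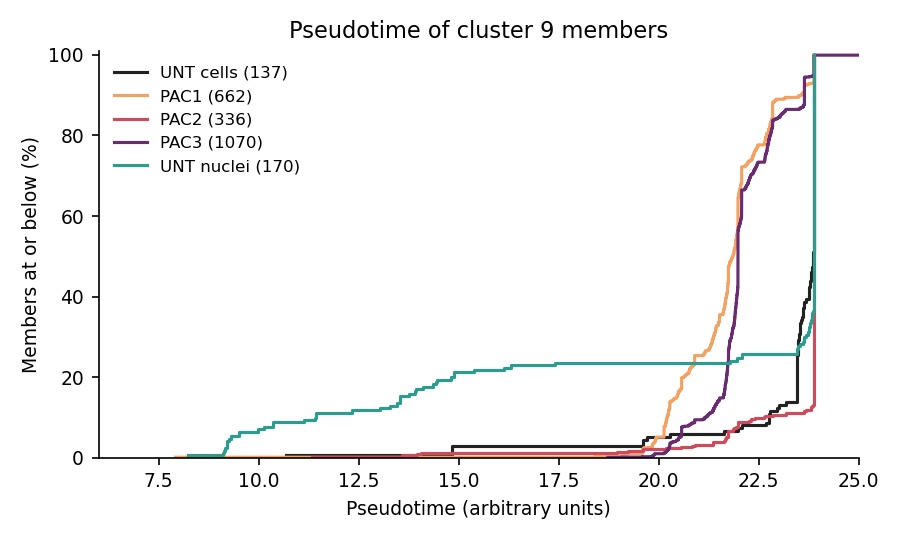
The percent of cluster 9 members (vertical axis) at or below each pseudotime (horizontal axis, arbitrary units) for UNT cells, PAC1, PAC2, PAC3 and UNT nuclei, with the number of members in the key. PAC1 and PAC3 climb around 22.0, while PAC2, UNT cells and UNT nuclei have their largest step at 23.8808.

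A smaller share of members was called S phase than of the cells of all other clusters of the same paclitaxel condition. The share called S, from the deposited S and G2M scores, was 17.1% (14.3 to 20.2) in PAC1 members and 25.6% (23.9 to 27.5) in other PAC1 cells. It was 15.8% (12.04 to 20.1) and 21.1% (17.6 to 24.9) in PAC2, and 15.3% (13.2 to 17.6) and 19.4% (17.6 to 21.3) in PAC3. The intervals are apart in PAC1, overlap in PAC2 and PAC3, and the direction was the same in all 3. Among cells in the range of 8015.4 to 24265 UMIs that the 3 conditions share, the S shares were 20.2% and 28.6% in PAC1, 17.5% and 25.7% in PAC2, and 16.4% and 22.3% in PAC3. UNT members had an S share of 32.1% (24.4 to 40.6), close to the 31.3% of other UNT cells. The lower S share against all other clusters was thus seen after paclitaxel and not in untreated members. With 1 library each that difference was not tested.

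The shares called G1 and G2M did not keep 1 direction. G1 was 43.4% (39.5 to 47.2) in PAC1 members and 35.4% (33.5 to 37.4) in other PAC1 cells, 37.5% and 41.0% in PAC2, and 41.5% (38.5 to 44.5) and 36.4% (34.1 to 38.7) in PAC3. G2M was 39.6% and 38.9% in PAC1, 46.7% (41.3 to 52.2) and 37.9% (33.7 to 42.3) in PAC2, and 43.2% and 44.3% in PAC3. Among the paclitaxel conditions, PAC2 was thus the one with more G2M and no more G1 in members than in the pool of other cells. Cluster 7 held 334 of the 512 other PAC2 cells, and 38.0% of these were called G2M. PAC2 cluster 2 had 41.5% G2M (29.4 to 54.4). PAC2 cluster 6, with 27 cells, was above members at 55.6% (35.3 to 74.5). The part of recovery time in the PAC2 result was not tested. The phase calls do not measure how fast the cells divided, and the part of depth and free RNA in them was not tested.

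**Figure D5:**
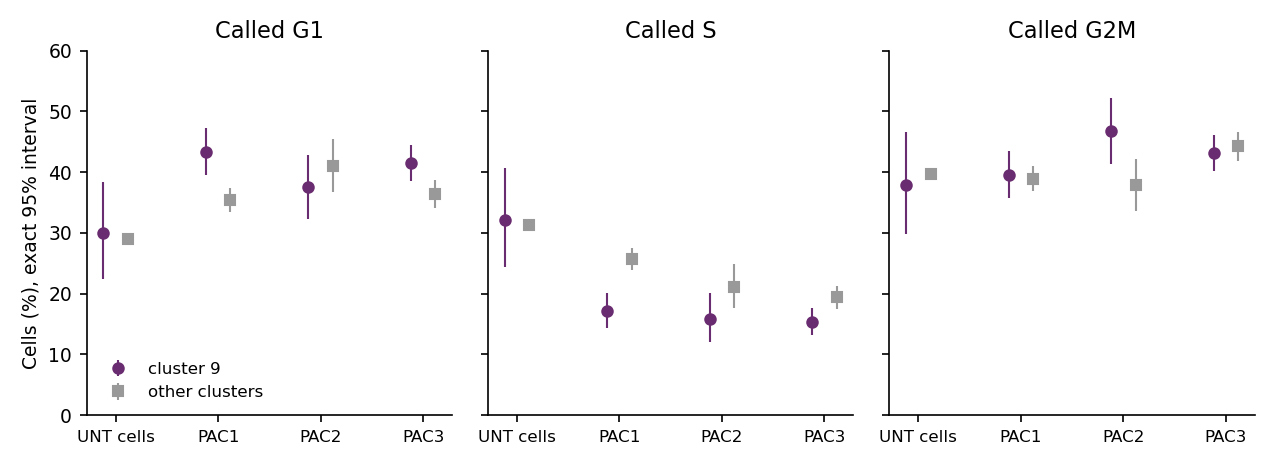
The percent of cells called G1, S and G2M (vertical axes) in UNT cells, PAC1, PAC2 and PAC3, for cluster 9 members (purple circles) and the cells of other clusters of the same condition (grey squares), with exact 95% intervals. In the S panel the purple circle is below the grey square in each paclitaxel condition and level with it in UNT cells.

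In the paclitaxel and untreated conditions, members had a lower median mitochondrial share of UMIs than other cells. The medians were 2.56% (2.51 to 2.64) and 2.98% in PAC1, 2.55% (2.47 to 2.66) and 3.26% in PAC2, 2.24% and 2.84% in PAC3, 3.65% (3.54 to 3.75) and 4.09% in UNT cells, and 9.05% and 9.44% in UNT nuclei. In UNT cells and PAC1 to PAC3, members had more median genes at lower median UMIs. The intervals for genes are apart only in PAC3, at 3381 to 3527 and 3164 to 3260. Those for UMIs are apart in PAC1 and PAC2 and overlap in PAC3 and UNT cells. Median UMIs were 11011.5 in members and 11873 in others in PAC1, 15229 and 18315 in PAC2, 12674.5 and 12810 in PAC3, and 17213 and 18451 in UNT cells. Median genes were 3250.5 and 3143.5 in PAC1, 4020.5 and 3936 in PAC2, 3465.5 and 3210 in PAC3, and 4011 and 3981 in UNT cells. UNT nuclei differed in this, with 1646.5 genes in members and 1748 in others at 3050 and 3435.5 UMIs. Some single clusters had more median genes than members. These were cluster 2 in PAC1 (3309.5), cluster 7 in PAC2 (4332), and clusters 1 (4255) and 7 (4047, 5 cells) in UNT cells. Among clusters 1, 2, 5, 6 and 7 the rest had fewer. The eribulin conditions, with 9 to 36 members each, did not share the directions seen against all other cells. The median mitochondrial share of members and others was 1.72% and 3.05% in ERI1 and 2.54% and 3.85% in ERI2, but 4.34% and 2.98% in ERI3, 5.45% and 4.70% in ERI4 cells and 13.6% and 12.8% in ERI4 nuclei. Median genes were lower in members in the 4 whole-cell eribulin conditions, from 3493 against 3865.5 in ERI1 to 2111.5 against 4334 in ERI4 cells. None of the members lay outside the filter the authors state for genes and mitochondrial share.

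In PAC3 the leading lineage had values near those of the remaining called members, while in PAC1 some lineages differed. In PAC3, bc14-4-bc30-67693 members had a median of 12639 UMIs (11980 to 13328), 2.22% mitochondrial UMIs (2.14 to 2.27) and a pseudotime of 22.0, and the 103 called members outside the leading barcodes had 12112 UMIs (10780 to 14934), 2.33% (2.23 to 2.58) and 22.0. The S share was 15.8% (12.6 to 19.3) in the former and 12.6% (6.89 to 20.6) in the latter. In PAC1 the median mitochondrial share was 2.12% (1.97 to 2.32) for bc14-65-bc30-62538 and 2.68% (2.51 to 2.87) for bc14-18-bc30-67263. Median UMIs there were 8166 (7314 to 11099) for bc14-29-bc30-33048 and 12157 (9119 to 16516) for bc14-4-bc30-67693, with overlapping intervals. Of the 8 lineages whose sequences are shown, 6 had at least 10 called PAC2 members. Each of these had its PAC2 median at 23.8808, as did the 100 called PAC2 members outside the 8. The difference between PAC2 and the other rounds in pseudotime was therefore present within single lineages. For bc14-4-bc30-67693 the median was 22.0 (21.7 to 22.2) in PAC1 and 22.0 in PAC3, and 23.9 in PAC2.

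The few cells of cluster 9 lineages that lay in other clusters were deeper in PAC1 and PAC3. In PAC1 the 32 cells outside had a median of 24509.5 UMIs and the 399 inside 10337. In PAC3 the 28 outside had 26492.5 and the 844 inside 12315. Among the PAC3 cells, 71.4% (51.3 to 86.8) of those outside and 13.98% (11.7 to 16.5) of those inside had at least 2 detected barcodes, and in PAC1 the shares were 40.6% (23.7 to 59.4) and 28.6% (24.2 to 33.3). In PAC2 depth was similar, at 15726 UMIs in the 23 outside and 15183 in the 224 inside. The part of droplets with more than 1 cell in these counts was not tested. Cells that the authors named Doublet from their barcodes were 11.8% of PAC1 members and 6.84% of other PAC1 cells, 11.0% and 10.9% in PAC2, and 9.53% and 2.73% in PAC3. In UNT cells these shares were 20.4% and 12.2%.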

How the data were processed

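Members and lists were chosen with earlier results of these data known. Per the submitters' processing notes and the design text, the authors counted reads on mm10 with Cell Ranger 3.1.0 (run 1), Cell Ranger 4.0.0 (run 2) and Cell Ranger ARC 1.0.0 (run 3), clustered with Seurat 3.1.4 and computed pseudotime with Monocle3 0.2.1. How barcode calls and phase scores were made, and whether barcode RNA entered the clustering, is not given in the sources used here. The deposited counts (UMIs, genes and barcodes per cell) are not normalized, the deposited percent is the mitochondrial share of UMIs, and the deposited score columns (S, G2M, pseudotime, UMAP) have arbitrary scales. With pandas 2.3.3, NumPy 2.4.6 and SciPy 1.17.1, G1 was called where both scores were at or below 0, otherwise the higher score's phase. The barcode spelling of UNT nuclei lacks hyphens and was brought to that of the other libraries. In nuclei 1 was subtracted from the detected barcodes. The lineage rule was tested on simulated data. Every condition has 1 library, so no test was made. Named barcodes are the 10 with most paclitaxel members (2 tie for the tenth place) and the 3 most frequent in UNT cells and nuclei members; bc14-16-bc30-28768, bc14-86-bc30-30675, bc14-76-bc30-49517 and bc14-29-bc30-70749 were named after their values were seen. Alternatives were the stated filter, a common UMI window, leaving out Doublet and Multiplet calls, a phase bound, G1 cells for pseudotime, earlier barcode calls, cells with exactly 1 barcode, and other neighbour settings. Doublets were otherwise kept, and no caller was run.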

Additional observations from a re-analysis of the deposited data

Results flagged for a closer look

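Some differences had opposite signs between conditions, and none of these was tested, since each condition has 1 library. From round 1 to round 3 the share of cells in cluster 9 differed by 15.7 percentage points with paclitaxel and by -0.0599 with eribulin. The share called G1 in members minus that in other cells was 7.92 percentage points for PAC1, -3.52 for PAC2 and 5.14 for PAC3. For G2M PAC1 gave 0.654, PAC2 gave 8.84 and PAC3 gave -1.07. Members had 30 more median genes than other cells among UNT cells, and the difference was -101.5 genes among UNT nuclei.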

How the results depend on the processing

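Of 136 alternative values for 31 results, 104 lay within the interval of the reported value, or within 1.5 times the number of lineages, and 32 did not. In the common UMI window PAC1 and PAC2 shares in cluster 9 were 20.1% and 46.1%, PAC1 members were 36.7% G1 and 20.2% S, their pseudotime was 22.0, and median UMIs were 11573.5 in PAC1 and 14311 in PAC2. Without Doublet and Multiplet calls the PAC3 share was 36.2% and PAC1 median UMIs 10205.5. Added after seeing the data, called cells alone gave 24.4% of PAC1, and without the leading barcode of cluster 9 21.3% of PAC3. Without the leading barcode of the other clusters they gave 26.5%, 52.9% and 73.6% of PAC1, PAC2 and PAC3, and without both 24.4%, 48.9% and 55.5%. With the phase bound at 0.05, PAC1 members were 52.3% G1, 12.7% S and 35.0% G2M, and PAC3 members 50.5% G1 and 9.35% S. G1 cells had a pseudotime of 21.5 in PAC1 and 21.9 in PAC3. The share of bc14-4-bc30-67693 was 14.1% in PAC1 and 61.2% in PAC3 with the original call, 60.8% in PAC3 with the first revision and 61.1% with exactly 1 detected barcode. In UNT cells the lineages lay in cluster 9 in 62.5% of 8 cells with the original call and 100% of 3 cells with exactly 1 barcode. The number of lineages was 13 with the original call and 13 at 95% or more, all among the 27. The causes were not tested. Leaving out Doublet calls cannot alter values over called cells, and with UNT nuclei names as deposited no lineage is matched there. No paired analysis was possible because each condition has 1 library and no test was made.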
